A study of Homo sapiens with 64 samples.

Results

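The genes described here are 41 genes of the actin cytoskeleton, which were taken by symbol from the 54127 genes counted in every library and all of which were found. They were the actins (ACTB, ACTG1), filament crosslinkers (ACTN1, ACTN4, FLNA), nonmuscle myosin heavy chains (MYH9, MYH10, MYH14) and light chains (MYL6, MYL9, MYL12A, MYL12B), tropomyosins (TPM1 to TPM4) and the calponin family (TAGLN, TAGLN2, CNN1, CNN2, CNN3). Filament turnover was represented by CFL1, CFL2, PFN1, PFN2, CAPG and GSN, adhesion plaques by VCL, ZYX, TLN1 and VASP, the links from filament to membrane by EZR, RDX and MSN, signaling by RHOA, RHOB, RHOC, CDC42 and RAC1, and the Arp2/3 complex by ARPC2 and ARPC5. The rule names genes and sets no threshold on a measured value, but the list was drawn up with earlier results of these data known.

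RNA was sequenced from 64 samples in 16 groups of 4. The established colorectal cancer lines were DLD1, HCT15, HT55, RKO, SW48 and SW948, which were stained with CFSE, a dye that binds cell protein and is diluted at each division, and were grown without adherence in serum-free medium with EGF and bFGF. On day 6, flow sorting gave label-retaining cells (LRCs), still bright with dye, and non-LRCs, which had divided, for 48 sorted samples from CFSE-stained cells. The other 16 samples were unsorted DLD1 cells, either CFSE stained or unlabeled (given as DMSO in the characteristics), named d1 or d5 in the labels, although the design text gives day 6 for the later time. All 48 sorted samples thus came from dye-stained cells, and the gate on brightness stands in for division history. The 4 samples of a group were biological replicates of 1 line, so the spread is that between cultures of the line.

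Actin filaments grow at one end and shrink at the other, and the balance is set by proteins that hand over monomers (profilins), cut and recycle filaments (cofilins, gelsolin) or start branches (the Arp2/3 complex). Myosin II pulls on filaments that alpha-actinin and filamin bundle and that tropomyosin coats, and small GTPases switch these machines on and off. In gut epithelium the same proteins form the belt below the cell junctions and the core of the brush border, where ezrin ties the filaments to the apical membrane.

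Many of these genes are known targets of serum response factor (SRF), which binds the CArG box and is controlled by the pool of free actin, so the promoters were read for that motif. RefSeq windows (GRCh38.p14) were given for 36 of the 41 genes. ACTB, MYL9, TAGLN, PFN2 and RAC1 had no entry. A CArG box on either strand stood within 250 bases before a start of 5 of the 36 genes (13.9%), against 1.44% of the 27305 genes of the table. By promoter, it was in 5 of the 64 windows of these genes, against 1.16% of all 35116 promoters. A gene with several windows has more places for a match. The 5 boxes are printed as 60 bases, 5′ to 3′ along the gene, with the box in capitals, because these are the members in which the letters of the SRF site were found.
ACTG1 (chr17:81512859-81512918, minus strand): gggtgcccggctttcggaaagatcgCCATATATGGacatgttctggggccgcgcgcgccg
ACTN1 (chr14:68977703-68977762, minus strand): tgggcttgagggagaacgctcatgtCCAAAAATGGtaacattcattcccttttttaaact
CNN2 (chr19:1026494-1026553, plus strand): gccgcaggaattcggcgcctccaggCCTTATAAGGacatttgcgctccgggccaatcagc
FLNA (chrX:154374694-154374753, minus strand): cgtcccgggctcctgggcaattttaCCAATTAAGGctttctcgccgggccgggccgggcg
TPM4 (chr19:16067340-16067399, plus strand): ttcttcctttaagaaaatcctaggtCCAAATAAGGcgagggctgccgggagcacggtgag
The first base of the box lay 94 bases before the start in ACTG1 and FLNA, 89 in CNN2, 171 in ACTN1 and 173 in TPM4. The letters GGAATG of the TEAD site, on either strand, were in 6 of the 36 genes (ACTN1, CNN3, MYH9, MYH10, PFN1 and VCL), or 16.7%, against 14.3% of all genes in the table. These matches describe letters only, and no binding was measured.

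Libraries held 12237225 to 20913455 counts on genes, with a median of 15063858, and the 41 genes took 1.25% to 2.09% of them. The epithelial markers EPCAM, CDH1, KRT8, KRT18 and VIL1 summed to between 2299 and 14880 CPM (counts scaled to a common library total) in the sorted samples of 5 lines, but only to between 189.2 and 298.7 CPM in RKO, where CDH1 stood near 1 CPM (0.893 in non-LRCs, 1.05 in LRCs). Smooth muscle markers were near 0 (ACTG2 and MYH11 below 1 CPM in every group, DES at most 5.98), apart from ACTA2. Of the leukocyte markers, CD45 (PTPRC) exceeded 1 CPM in SW48 alone (13.8 CPM in LRCs, 15.0 in non-LRCs), whereas LYZ, which gut epithelium also makes, averaged 1328 CPM in SW948 non-LRCs and 1292 CPM in SW948 LRCs. No fibroblast marker averaged above 8.96 CPM in a group. In RKO and DLD1 each sorted sample lay nearest to its own population over all genes. SW948 LRC replicate 4 lay closer to the non-LRCs (root mean square difference 0.13 on the log2 scale) than to the other LRCs (0.30). Crossings of this kind were also found for HCT15 LRC replicate 4 and HCT15 non-LRC replicate 2, and for replicate 2 of both populations in HT55 and SW48. Among the controls, the library labeled unlabeled day 1 replicate 4 lay closer to the unlabeled day 5 samples (0.25) than to its own group (0.55), and CFSE day 1 replicates 3 and 4 were slightly closer to the unlabeled day 1 samples (0.33 and 0.33) than to their group (0.36 and 0.36). The counts of calls that rest on SW948 LRC replicate 4 or unlabeled day 1 replicate 4 are given with and without them.

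LRCs were compared with non-LRCs over the 6 lines together to find which of these genes change with label retention on average over the lines. The actins and several proteins that handle actin were lower in LRCs: PFN1, ACTB, ACTG1, CFL1 and CFL2 fell, with TPM3, RHOA and RAC1. The filament-severing protein gelsolin (GSN), MSN, MYL9 and TAGLN rose. Of 40 members tested (CNN1 had too few reads), 12 were called at an adjusted p under 0.05, 4 higher and 8 lower, where 22.9% of all genes tested were called, 12.2% higher and 10.7% lower. The test was edgeR's quasi-likelihood F-test with Benjamini-Hochberg adjustment over all genes, as for each adjusted p below. The median log2 fold change of the 40 was -0.08, against 0.01 for all genes. Same-numbered LRC and non-LRC samples varied together in HT55, SW48, DLD1 and HCT15, but not in RKO or SW948. In HT55, DLD1 and HCT15 some samples of different numbers correlated more, so the numbers are not shown to pair single samples there. With the replicate as a block, 15 members were called, 4 higher and 11 lower, where 25.5% of all genes were called. In such bulk samples a smaller share of cells of one kind and less RNA per cell cannot be told apart. The calls rested in part on single lines. Without SW948, 11 members were called, 1 higher (GSN) and 10 lower, where 19.5% of all genes were. MSN (0.58, adjusted p = 0.105), MYL9 (0.28, adjusted p = 0.104) and TAGLN (0.27, adjusted p = 0.0822) then lost their call. Without RKO, 6 members were called (MSN, ACTG1, PFN1, MYL9, TAGLN and, newly, TAGLN2), where 14.6% of all genes were. Without SW948 LRC replicate 4, 14 members were called, where 24.4% of all genes were. Without DLD1, 7 members were called (17.3% of all genes), without the replicates numbered 3 there were 6 (13.7% of all genes), and without those numbered 4 there were 7 (15.7% of all genes), shares of the 40 that are near those of all genes.

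**Figure D1:**
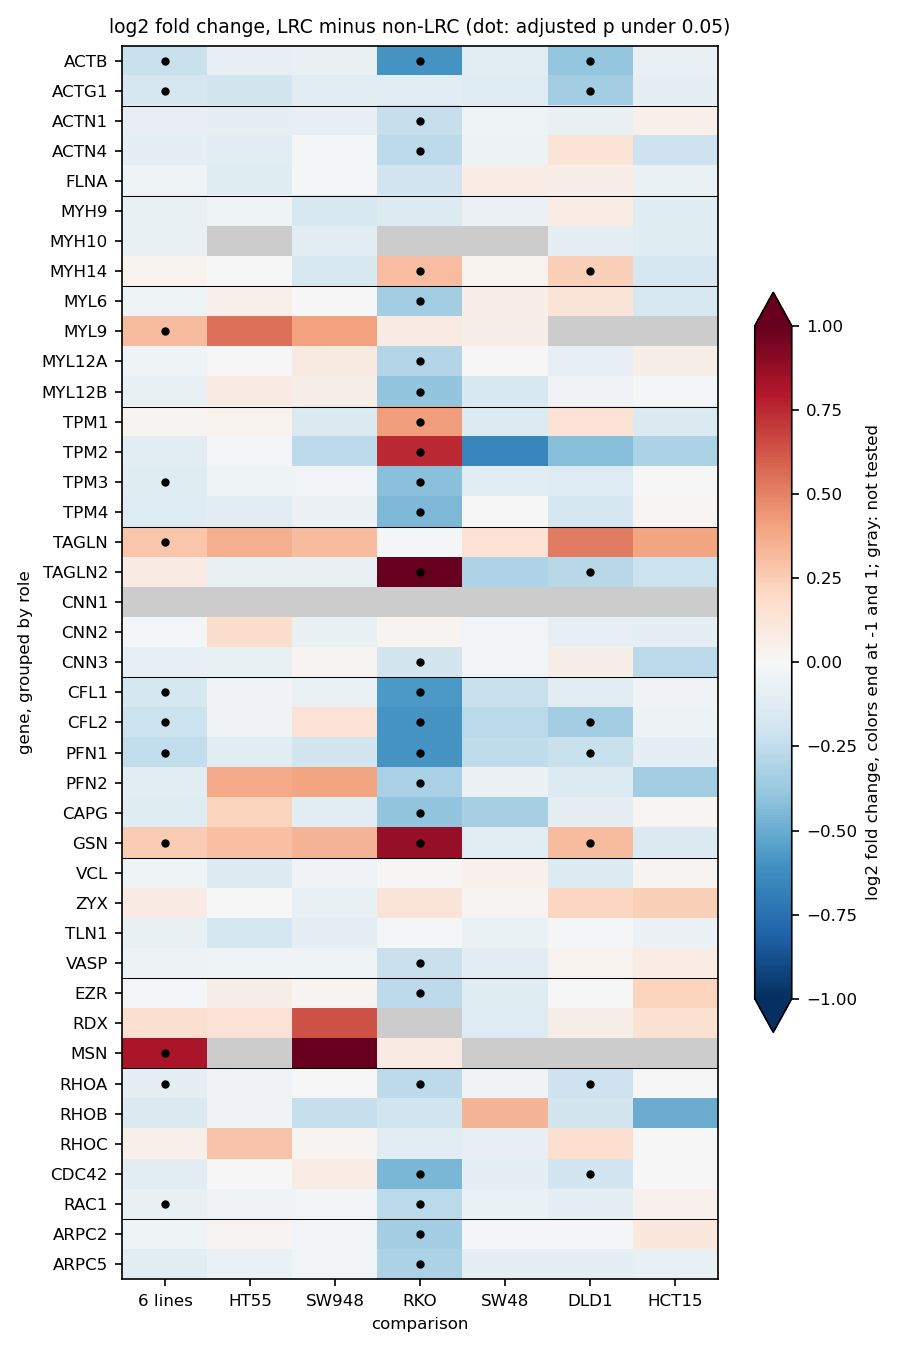
Log2 fold change of each gene (rows, grouped by role) in LRCs minus non-LRCs, over the 6 lines together and in each line (columns); dots mark an adjusted p under 0.05 and gray marks genes not tested. Dots stand in the RKO and DLD1 columns and in none of the other single lines, and the PFN1 row is blue in all 7 columns.

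Profilin 1 (PFN1, ENSG00000108518, chr17:4848947-4852356 in GRCh37) loads actin monomers with ATP and delivers them to growing ends, and it gave the smallest p. Over 24 LRC samples its level ran from 317 to 1175 CPM with a median of 495.8, and over 24 non-LRC samples from 330.9 to 1331 CPM with a median of 627.6. LRCs were lower by 0.24 ± 0.05 (SE) on the log2 scale (adjusted p = 1.106e-04), and lower in 22 of 24 same-numbered comparisons. In RKO the 4 LRC samples held 508, 483.5, 554.3 and 464.9 CPM and the non-LRC samples 692.5, 694.8, 850.6 and 749.2 CPM, with no overlap. In DLD1 the LRC samples held 439.3, 408.7, 422.5 and 387.8 CPM and the non-LRCs 517.7, 488.8, 467.6 and 491.3 CPM, again without overlap. In the other 4 lines the samples of both populations overlapped.

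The cytoplasmic actins were the most abundant members. Beta-actin (ACTB, ENSG00000075624, chr7:5566040-5603533) ranged from 1216 to 3920 CPM in LRCs (median 1910) and from 1590 to 4120 CPM in non-LRCs (median 2501). The common change was -0.22 ± 0.05 (adjusted p = 1.313e-03), with LRCs lower in 20 of 24 same-numbered comparisons. RKO LRCs held 1625, 1657, 1884 and 1713 CPM and RKO non-LRCs 2537, 2468, 2690 and 2534 CPM. DLD1 LRCs held 1308, 1250, 1244 and 1216 CPM against 1788, 1624, 1590 and 1655 CPM. Both lines thus showed a clear gap, which is large relative to the spread within each population. Gamma-actin (ACTG1, ENSG00000184009, chr17:79476439-79490873) ranged from 1361 to 5007 CPM in LRCs (median 2952) and from 1481 to 5965 CPM in non-LRCs (median 3315), a change of -0.16 ± 0.04 (adjusted p = 2.489e-03; lower in 21 of 24). Its gap was clear in DLD1, where LRCs held 1607, 1518, 1542 and 1515 CPM and non-LRCs 2022, 1942, 1985 and 2021 CPM. In RKO, where LRCs held 3489, 2927, 2897 and 2787 CPM and non-LRCs 3005, 3306, 3334 and 3323 CPM, the populations overlapped through LRC replicate 1 and ACTG1 was not called (-0.12 ± 0.09, adjusted p = 0.323). ACTB fell by 0.59 on the log2 scale in RKO, and the difference between the actins was not tested. ACTB, ACTG1, PFN1 and CFL1 have 10, 17, 10 and 8 annotated pseudogenes, and the count files list reads that align to several places apart from the genes, so these levels leave out reads that fit a copy equally well and are uncertain.

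The cofilins sever old filaments and return monomers to the pool. CFL1 fell by 0.18 ± 0.05 across the lines (adjusted p = 8.053e-03; lower in 20 of 24) and CFL2 fell by 0.21 ± 0.06 (adjusted p = 7.816e-03; lower in 18 of 24). TPM3, a tropomyosin that coats filaments in non-muscle cells, fell by 0.12 ± 0.04 (adjusted p = 0.0143). The GTPases fell by less: RHOA, which drives contractility, by 0.09 ± 0.03 (adjusted p = 0.0321) and RAC1, which drives protrusion, by 0.07 ± 0.03 (adjusted p = 0.0491).

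Gelsolin (GSN, ENSG00000148180, chr9:123970072-124095121), a calcium-activated protein that cuts and caps filaments, went the other way to the cofilins. It ranged from 98.4 to 279.5 CPM in LRCs (median 186.3) and from 60.7 to 304.9 CPM in non-LRCs (median 178.2), a change of 0.26 ± 0.07 (adjusted p = 6.573e-03; higher in 16 of 24). The rise was largest in RKO, from 62.5, 60.7, 69.3 and 65.0 CPM in non-LRCs to 146.0, 112.4, 120.7 and 98.4 CPM in LRCs, with no overlap. In DLD1 the non-LRCs held 211.9, 253.4, 186.3 and 186.7 CPM and the LRCs 266.8, 279.5, 242.5 and 242.2 CPM, so that non-LRC replicate 2 lay inside the LRC range. GSN was on average higher in LRCs in HT55 (176 ± 21 against 142 ± 15 CPM, SD, n = 4) and SW948 (214 ± 42 against 170 ± 11 CPM), and lower in SW48 (235 ± 36 against 252 ± 51 CPM) and HCT15 (169 ± 17 against 189 ± 12 CPM). None of these 4 differences was called.

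Moesin (MSN, ENSG00000147065, chrX:64808257-64961793) links filaments to the plasma membrane. Its common change was 0.82 ± 0.23 (adjusted p = 8.522e-03; higher in 18 of 24), the largest of the 12, but it rested on low counts. RKO, the only line with more than 3 CPM, gave LRC values of 28.3, 26.0, 32.7 and 28.9 CPM and non-LRC values of 23.2, 27.2, 26.9 and 30.5 CPM, which overlap. In SW948 the LRC libraries had 29, 43, 49 and 13 reads and the non-LRC libraries 12, 11, 8 and 8. These 2 populations overlapped through LRC replicate 4. DLD1 gave 5, 7, 17 and 11 reads against 1, 0, 8 and 0, SW48 gave 10, 1, 6 and 8 against 2, 0, 0 and 1, and HCT15 gave 11, 4, 9 and 6 against 4, 0, 2 and 0. HT55 was at 0, 0, 5 and 1 reads against 1, 4, 4 and 4. Without RKO the change was 1.64 (adjusted p = 9.75e-04).

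MYL9 and TAGLN are both contractile genes best known from smooth muscle, a myosin light chain and an actin-binding protein, and both were low. MYL9 (chr20:35169900-35179850) ranged from 0.13 to 49.5 CPM in LRCs (median 2.21) and from 0.056 to 45.4 CPM in non-LRCs (median 1.89), a change of 0.31 ± 0.10 (adjusted p = 0.0158; higher in 17 of 24). RKO LRCs held 49.5, 46.9, 40.0 and 41.5 CPM and RKO non-LRCs 38.5, 38.1, 45.4 and 44.3 CPM, which overlap. In SW948, LRCs held 11.3, 9.85, 10.4 and 8.09 CPM and non-LRCs 7.06, 8.37, 7.17 and 7.49 CPM, with an overlap from LRC replicate 4. TAGLN (chr11:117070086-117078180) rose by 0.28 ± 0.10 (adjusted p = 0.0385; higher in 17 of 24) from levels of 2.12 to 4.49 CPM in the non-LRCs of the 6 lines. TAGLN shares 2233 exonic bases with PCSK7 on the opposite strand, and without a stated strand setting the reads of the pair cannot be told apart. Exons of VCL, ACTN4, CFL1 and MYL6 share 1109, 868, 759 and 719 bases with a gene on the other strand, and those of GSN (279, with GSN-AS1), RHOA (214, with TCTA) and PFN1 (111, with ENO3) share fewer. The overlaps of ZYX, MYH10, ACTG1, PFN2 and EZR are 24 to 82 bases long. The values of these genes carry the same uncertainty.

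**Figure D2:**
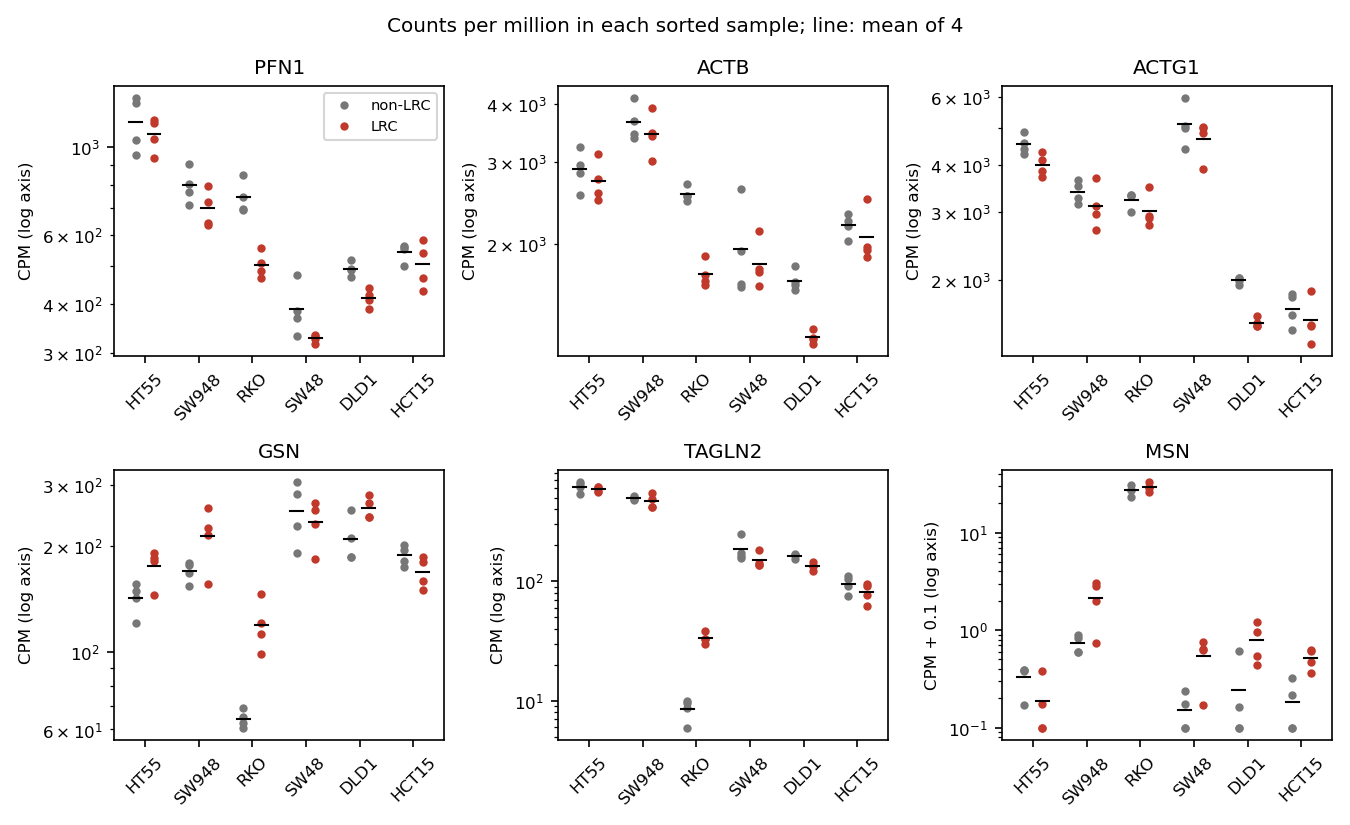
CPM of 6 genes in each of the 48 sorted samples on log axes, by line, with non-LRCs in gray, LRCs in red and a line at the mean of 4; 0.1 was added for MSN. PFN1 and ACTB separate in RKO and DLD1, ACTG1 in DLD1, and TAGLN2 and GSN in RKO, whereas the MSN points of every line but RKO lie at or below about 3 CPM.

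The next question was whether the LRC effect differed between lines. It did for 14 of 40 members, where 14.3% of all genes were called: TAGLN2, GSN, PFN2, TPM1, MSN, EZR, CDC42, CFL2, MYL12B, RDX, MYH10, TPM2, ACTB and ARPC2. With the replicate block 23 were called, where 33.6% of all genes were. The smallest adjusted p-values were 3.884e-11 for TAGLN2, 7.484e-04 for GSN, 4.185e-03 for PFN2, 4.713e-03 for TPM1 and 8.816e-03 for MSN, followed by EZR (0.0196), CDC42 (0.0197) and CFL2 (0.0243). Without RKO no member was called and 1.02% of all genes were. Without the replicates numbered 1, 3 or 4 the count was 3, 7 and 4, where 3.20%, 4.88% and 5.40% of all genes were called, and without SW948 LRC replicate 4 it was 14, where 18.1% were.

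RKO showed by far the widest change. LRCs of this line carried less ACTB, PFN1, CFL1, CFL2, CDC42, TPM3, TPM4, ARPC2 and ARPC5 and more TAGLN2, GSN, TPM2, TPM1 and MYH14. Of 38 members tested, 26 were called, 5 higher and 21 lower, where 41.5% of all genes were called, 20.4% higher and 21.0% lower. The median change of the 38 was -0.23, against 0.01 for all genes. The 41 genes together took 1.26% to 1.44% of the counts in RKO LRCs and 1.58% to 1.59% in RKO non-LRCs. The mean share was lower in LRCs in each other line too, and in SW48 the ranges did not overlap (1.476% to 1.495% against 1.571% to 1.734%). Mitochondrial transcripts (7.01% to 10.5% against 4.47% to 6.57% of counts) and reads on no counted feature (7.19% to 9.76% against 6.41% to 7.65%) were higher in RKO LRCs, and their part in these results was not tested.

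Transgelin 2 (TAGLN2, ENSG00000158710, chr1:159887897-159895297), an actin-bundling relative of calponin, rose most. RKO non-LRCs held 8.72, 5.97, 9.57 and 10.04 CPM and LRCs 38.2, 29.6, 32.9 and 32.6 CPM, a change of 1.94 ± 0.14 (3.84-fold, adjusted p = 5.595e-08). The populations were far apart, but the mean LRC level of RKO stayed below that of every other line, where non-LRCs averaged 95.3 to 617.5 CPM. In the other 5 lines the TAGLN2 value was below 0, from -0.07 in HT55 to -0.31 in SW48, and without the replicate block only that of DLD1 was called. With the block, SW48 (-0.29 ± 0.07, adjusted p = 0.0217) and HCT15 (-0.22 ± 0.08, adjusted p = 0.0450) were called too. DLD1 LRCs, at 133 ± 9.2 CPM, were below non-LRCs at 163 ± 7.6 CPM (-0.27 ± 0.06, adjusted p = 0.0132).

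All 4 tropomyosins were called in RKO, in both directions. TPM2 rose from 26.3, 24.2, 28.3 and 26.1 CPM in non-LRCs to 52.9, 54.5, 36.5 and 34.0 CPM in LRCs (0.75 ± 0.14, adjusted p = 4.685e-04), with LRC replicates 1 and 2 above 3 and 4. TPM1 rose from 30.2 ± 3.7 to 40.8 ± 2.1 CPM (0.42 ± 0.09, adjusted p = 2.163e-03). TPM3 and TPM4 fell by 0.42 ± 0.07 and 0.45 ± 0.06 (adjusted p = 2.195e-04 and 6.511e-05). In SW48 the TPM2 value was -0.65 ± 0.23, from 14.0 ± 4.2 CPM in non-LRCs to 8.91 ± 1.9 CPM in LRCs, and was not called (adjusted p = 0.260). With the replicate block, as same-numbered samples of SW48 varied together, it was called (-0.64 ± 0.14, adjusted p = 0.0217; lower in 4 of 4 same-numbered comparisons).

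The turnover proteins moved together in RKO except for GSN, which rose by 0.87 ± 0.10 (adjusted p = 9.168e-06). CFL2, CFL1 and PFN1 fell by 0.59 ± 0.08, 0.57 ± 0.09 and 0.59 ± 0.09 (adjusted p = 6.000e-05, 1.209e-04 and 7.442e-05), and CAPG and PFN2 by 0.40 and 0.33. CDC42, the GTPase that sets up filopodia, fell by 0.45 ± 0.07 (adjusted p = 7.495e-05), from 205.1 to 151.5 CPM. RHOA and RAC1 fell by 0.26 and 0.27, while RHOB and RHOC were not called. Both Arp2/3 members fell, ARPC2 by 0.34 and ARPC5 by 0.31, as did the light chains MYL6, MYL12A and MYL12B (0.35, 0.29 and 0.39), the alpha-actinins ACTN1 and ACTN4 (0.23 and 0.26), EZR (0.26), VASP (0.22) and CNN3 (0.18). The heavy chain MYH14 rose by 0.31. ACTN4 and VASP, though called, overlapped between the populations. How many of all genes lacked overlap was not counted, so the members cannot be set against all genes in this respect. ACTA2, a smooth muscle actin outside the 41 genes, rose from 4.71 to 27.3 CPM in RKO LRCs (2.51 ± 0.16, adjusted p = 2.370e-08), where the defining smooth muscle markers MYH11, ACTG2 and DES were each below 0.1 CPM.

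DLD1 showed a smaller change in fewer genes, with less ACTB, ACTG1, CFL2 and PFN1 and more MYH14 and GSN in LRCs. The more abundant cofilin, CFL1, was not called in the fit without a block. Of 38 members tested, 9 were called, 2 higher and 7 lower, where 14.6% of all genes were called, 6.67% higher and 7.89% lower. ACTB fell by 0.39 ± 0.06 (adjusted p = 2.405e-03) and ACTG1 by 0.35 ± 0.05 (adjusted p = 2.824e-03), with the sample values given above. CFL2 went from 24.7, 22.7, 23.7 and 19.3 CPM in non-LRCs to 17.9, 17.8, 17.2 and 17.2 CPM in LRCs (-0.35 ± 0.08, adjusted p = 0.0198), without overlap. PFN1 fell by 0.23 ± 0.06, RHOA by 0.21 ± 0.05 and CDC42 by 0.19 ± 0.06 (adjusted p = 0.0211, 0.0159 and 0.0412). GSN rose by 0.32 ± 0.10 (adjusted p = 0.0499) and MYH14, a heavy chain of nonmuscle myosin II, by 0.24 ± 0.05 (adjusted p = 0.0102). Same-numbered samples of DLD1 varied together, and with the replicate as a block 19 members were called, where 33.8% of all genes were. The 10 added calls were small, from 0.13 to 0.21 in size on the log2 scale. Without non-LRC replicate 1 the unblocked count was 4 (7.13% of all genes) and without LRC replicate 4 it was 5 (9.73% of all genes).

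No member was called in HT55, SW948, SW48 or HCT15, where 0%, 0%, 0.796% and 0.977% of all genes were. At an unadjusted p under 0.05 there were 2, 6, 5 and 4 members, where 7.51%, 17.2%, 13.1% and 17.2% of all genes passed, and DESeq2 called 0, 2, 0 and 0, where it called 0.276%, 1.79%, 2.73% and 3.77% of all genes. In HT55, SW48 and HCT15 same-numbered samples varied together. With the replicate as a block HT55 remained at 0 members (0% of all genes), SW48 reached 5 (9.69% of all genes) and HCT15 reached 5 (21.3% of all genes). In SW48, mitochondrial transcripts took 13.8% to 14.2% of counts in LRCs and 9.66% to 11.3% in non-LRCs, and their part in these calls was not tested. The members called in SW48 were TPM2, TAGLN2, CFL2, CAPG and RHOB, and those in HCT15 were TAGLN2, PFN2, ZYX, EZR and RHOB. In SW948, leaving out LRC replicate 4 brought 7 calls, where 14.5% of all genes were called: MSN (2.01), RDX (0.76), PFN2 (0.52), MYL9 (0.50) and GSN (0.46) were higher in LRCs, and RHOB (-0.25) and TPM1 (-0.23) lower. With that library RDX was at 29.1, 27.9, 23.6 and 18.5 CPM over the LRC samples against 14.6, 15.4, 17.7 and 16.3 CPM (adjusted p = 0.133), which do not overlap.

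The 40 testable members were next compared between the non-LRCs of the 6 lines. All 40 differed, where 98.3% of all genes did, so a difference between lines is the rule. Per kilobase of canonical transcript, the highest mean levels over the lines were those of ACTG1 (1731 RPKM), ACTB (1371 RPKM), PFN1 (852.2 RPKM), CFL1 (536.7 RPKM), the light chain MYL6 (448.8 RPKM) and RHOA (320.1 RPKM). These 6 genes varied from 2.16-fold (MYL6) to 3.03-fold (ACTG1) between the highest and lowest line. ACTB ran from SW948 (3659 ± 333 CPM) through HT55, RKO, HCT15 and SW48 to DLD1 (1664 ± 86 CPM), and the neighbors HT55 and RKO, HCT15 and SW48, and SW48 and DLD1 overlapped. MYH9, the main nonmuscle myosin, was the steadiest member in its line means, at 871.4 to 1070 CPM, and all 5 pairs of neighbors in its order overlapped.

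Within families, one relative was nearly silent in some lines. Of the 3 membrane linkers, ezrin (EZR), the linker of the brush border, was present in all lines, from 301.8 CPM in RKO to 848.7 CPM in SW48. Radixin (RDX) ran from 105 ± 11 CPM in HCT15 through DLD1 (73.7 ± 3.4), SW48 (27.9 ± 3.1), HT55 (25.6 ± 4.8) and SW948 (16 ± 1.3) to RKO, which had 1, 1, 0 and 0 reads, and of these neighbors only SW48 and HT55 overlapped. MSN was the reverse, at 27.0 ± 3.0 CPM in RKO and 0.05 to 0.63 CPM elsewhere. Of the myosin II heavy chains, MYH10 was at 100 ± 7.4 CPM in SW948, 87.4 ± 5.2 in HCT15 and 74.0 ± 3.4 in DLD1, with no overlap between these, and held at most 4 reads in any non-LRC library of HT55, SW48 or RKO. MYH14 ran from 823.2 CPM in HT55 to 26.1 CPM in RKO, a 31.6-fold range. The profilins split in a like manner: PFN2 was at 230 ± 12 CPM in SW48 and 1.39 ± 0.27 CPM in HT55 (165.6-fold), the line in which PFN1 was highest (1157 ± 185 CPM). TAGLN2 was 72.0-fold higher in HT55 (617.5 CPM) than in RKO (8.57 CPM). MYL9 was at 41.6 ± 3.8 CPM in RKO, 7.52 ± 0.59 in SW948 and below 2 CPM in the other lines, and TPM2 was lowest in DLD1 (1.98 CPM) and highest in HCT15 and RKO (both 26.2 CPM), which overlapped. The low TPM2 level of DLD1 holds for its sorted libraries only, as the unsorted DLD1 libraries held far more (given under other observations). CNN1, a smooth muscle calponin, had 12 reads over the 4 non-LRC libraries of RKO and 0 in those of the other 5 lines. Among the GTPases, RHOB spanned the widest range, from 522.2 CPM in HT55 to 53.4 CPM in SW48.

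**Figure D3:**
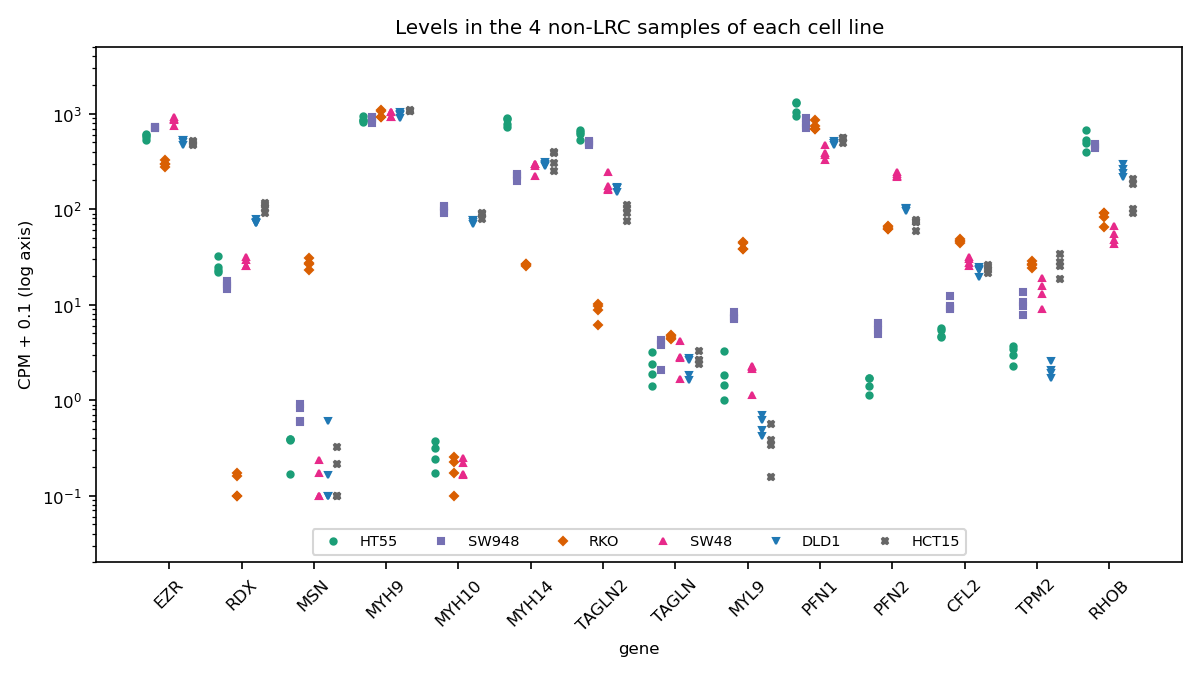
CPM plus 0.1 on a log axis for 14 genes in the 4 non-LRC samples of each line, with a color and symbol for each line. RKO sits alone at the bottom for RDX, TAGLN2 and MYH14 and alone at the top for MSN and MYL9, while all lines meet at MYH9.

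Unsorted DLD1 cells served as controls for culture time and for the dye. In unlabeled cells, the myosin light chains, RHOA, RHOB and RHOC, GSN, CAPG, PFN2, RDX and MYH14 rose from day 1 to day 5, and TAGLN fell. Of 38 members tested, 14 were called, 13 higher and 1 lower, where 25.5% of all genes were called, 12.4% higher and 13.1% lower. The median change of the 38 was 0.20, against 0.04 for all genes. This count depended on single libraries: it was 18 without the library labeled unlabeled day 1 replicate 4, where 42.1% of all genes were called, 4 without any one of day 1 replicates 1, 2 and 3 (6.68%, 8.94% and 8.42% of all genes), and 5 and 7 without day 5 replicates 1 and 2 (10.8% and 15.5% of all genes). It also depended on scaling: with library size and no TMM, 7 members were higher and 1 lower, where 4.92% of all genes were higher and 16.5% lower, and the median change was 0.08 for the members and -0.09 for all genes. Reads on no counted feature made up 8.96% to 13.6% of reads on day 1 and 5.19% to 8.35% on day 5, and their part in these results was not tested.

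TAGLN held 6.72, 4.64, 4.33 and 2.07 CPM on day 1 and 1.36, 1.51, 1.77 and 2.12 CPM on day 5, with replicate 4 of day 1 inside the day 5 range (-1.39 ± 0.29, adjusted p = 7.539e-03). GSN held 92.4, 97.3, 97.0 and 180.1 CPM on day 1 and 195.9, 203.6, 220.9 and 206.3 CPM on day 5 (0.82 ± 0.18, adjusted p = 8.144e-03). RHOB, a small GTPase of endosomes that is induced early by growth factors and stress, held 59.3, 56.8, 52.7 and 99.4 CPM on day 1 and 132.3, 106.3, 121.9 and 110.4 CPM on day 5 (0.81 ± 0.24, adjusted p = 0.0253). Replicate 4 of day 1 was the highest of its group for GSN and RHOB and the lowest for TAGLN. Without it the changes were -1.70 for TAGLN, 1.04 for GSN and 0.99 for RHOB. The remaining members with the largest changes were MYH14 (0.77 ± 0.28, adjusted p = 0.0498), CAPG (0.67 ± 0.18, adjusted p = 0.0180), CNN3 (0.61 ± 0.15, adjusted p = 0.0112), RHOC (0.60 ± 0.14, adjusted p = 9.738e-03) and PFN2 (0.59 ± 0.20, adjusted p = 0.0367). Without that library these 5 stood at 1.14, 0.84, 0.67, 0.65 and 0.77, all called.

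CFSE-labeled cells changed over the same time in 14 of 38 members, 12 higher and 2 lower, where 39.3% of all genes were called, 20.2% higher and 19.1% lower. Same-numbered samples of the 2 days varied together, and with the replicate as a block 19 were called, 16 higher and 3 lower, where 42.3% of all genes were. With library size and no TMM 10 were higher and 4 lower, where 13.5% of all genes were higher and 24% lower. All 3 light chains tested rose in both cultures, MYL12B by 0.68 ± 0.13 here and by 0.44 ± 0.13 in unlabeled cells. TAGLN held 8.33, 8.96, 5.62 and 6.62 CPM on day 1 and 1.66, 1.81, 1.81 and 1.59 CPM on day 5, well apart (-2.10 ± 0.29, adjusted p = 1.496e-04). GSN went from 50.3, 52.7, 67.7 and 64.2 CPM to 142.5, 143.3, 157.9 and 177.3 CPM (1.40 ± 0.18, adjusted p = 1.014e-04). MYH14 went from 80.9, 94.7, 94.0 and 96.4 CPM to 150.8, 116.2, 217.7 and 215.3 CPM (0.93 ± 0.28, adjusted p = 0.0143). These 3 genes had no overlap between days. ACTN1, an alpha-actinin of stress fibers, rose by 0.89 ± 0.13 (adjusted p = 2.187e-04), PFN2 by 0.90 ± 0.20 (adjusted p = 2.461e-03) and RDX by 0.60 ± 0.16 (adjusted p = 7.153e-03), and zyxin (ZYX), which marks tensed adhesions, fell by 0.60 ± 0.18 (adjusted p = 0.0132). Neither actin was called over time in either culture. Reads on no counted feature were 12.1% to 14.8% on day 1 and 5.20% to 7.31% on day 5.

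**Figure D4:**
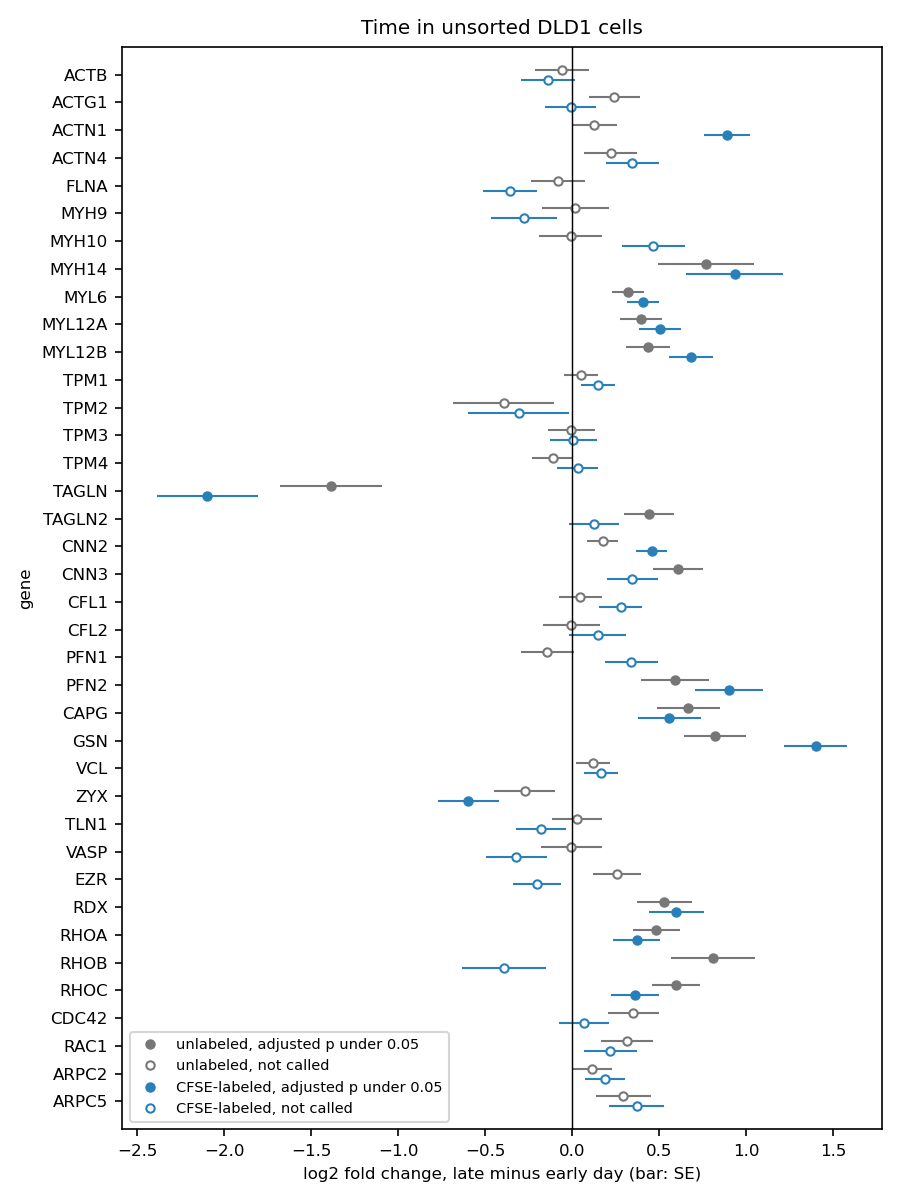
Log2 fold change of 38 genes from day 1 to day 5 in unlabeled (gray) and CFSE-labeled (blue) DLD1 cells with the standard error as bars; filled points have an adjusted p under 0.05. TAGLN lies furthest left at -1.39 and -2.10 and GSN furthest right among called genes at 0.82 and 1.40, and the 2 RHOB points lie on opposite sides of 0.

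The dye itself was tested at each time. On day 1, CFSE-labeled cells had more ZYX, EZR, FLNA and VASP and less MYH14, GSN, ACTN1 and CNN2 than unlabeled cells. These were 8 of 38 members, 4 higher and 4 lower, where 21.8% of all genes were called, 9.73% higher and 12.0% lower. MYH14 differed by -1.02 ± 0.28 (adjusted p = 0.0171) and GSN by -0.99 ± 0.18 (adjusted p = 2.527e-03). ACTN1 was at 206 ± 38 CPM in labeled and 305 ± 12 CPM in unlabeled cells (-0.57 ± 0.13, adjusted p = 7.351e-03). ZYX was at 240 ± 54 and 147 ± 31 CPM (0.71 ± 0.18, adjusted p = 0.0105) and EZR at 786 ± 162 and 520 ± 56 CPM (0.60 ± 0.14, adjusted p = 8.026e-03). FLNA, VASP and CNN2 differed by 0.51, 0.50 and -0.28. The labeled libraries fell into 2 pairs at some genes, called or not, though not at MYH14: EZR read 893.6 and 954.4 CPM in replicates 1 and 2 and 668.1 and 629.5 CPM in replicates 3 and 4, and RHOB, which was not called, 123.0 and 110.9 against 52.1 and 59 CPM. Without the library labeled unlabeled day 1 replicate 4, 7 members were called, where 18.0% of all genes were. MYH14, GSN, ACTN1, ZYX, EZR and CNN2 then differed by -0.62, -0.74, -0.58, 0.54, 0.63 and -0.33, TPM2 was added (-0.87, adjusted p = 0.0313), and FLNA (0.43, adjusted p = 0.0734) and VASP (0.36, adjusted p = 0.158) were no longer called. Without CFSE day 1 replicate 1 or 2 the count was 4 in each case, where 9.41% and 9.86% of all genes were called, a share near that of the members.

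On day 5 no member was called for the dye, where 5.13% of all genes were, 8 members passed an unadjusted p under 0.05 (24.4% of all genes), and DESeq2 called 3 (MYH14, VCL and RHOB; 10.5% of all genes). The nearest to a call were RHOB, at 65.7 ± 4.7 CPM in labeled and 118 ± 12 CPM in unlabeled cells (-0.84 ± 0.24, adjusted p = 0.0525), and MYH14 (-0.85 ± 0.28, adjusted p = 0.0755). The change over time did not differ between labeled and unlabeled cells for any member at this threshold, where 0.999% of all genes were called. ACTN1 (0.76 ± 0.18, adjusted p = 0.0543) and RHOB (-1.20 ± 0.34, adjusted p = 0.0912) came closest, 6 members passed an unadjusted p under 0.05 (17.0% of all genes), and DESeq2 called these 2 (4.24% of all genes). Without the library labeled unlabeled day 1 replicate 4, a choice made after seeing the data, 3 were called, RHOB (-1.40), ACTN1 (0.79) and PFN1 (0.67), where 6.09% of all genes were.

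**Figure D5:**
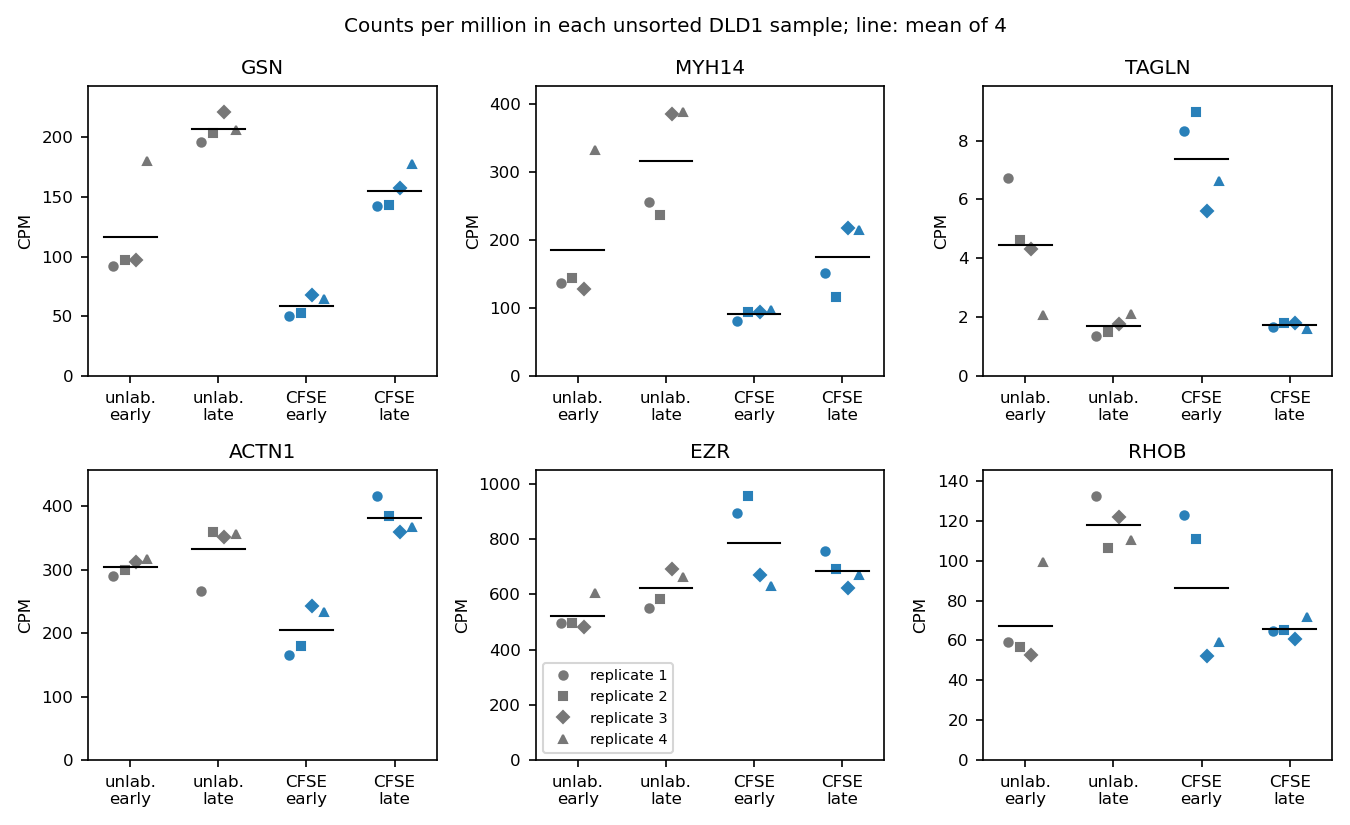
CPM of 6 genes in each of the 16 unsorted DLD1 samples from a zero baseline, with the replicate number as symbol, unlabeled in gray and CFSE-labeled in blue, and a line at the mean of 4. The triangle of the unlabeled early group, replicate 4, lies at 180.1 CPM for GSN and 2.07 CPM for TAGLN, near the late group.

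Other genes of actin control were counted by list to set the 41 genes in their pathway. Across the 6 lines, 16 of 82 tested were called, 8 higher and 8 lower, where 22.9% of all genes were. None of the 7 other Arp2/3 subunits was called. Of 17 nucleation promoters and formins, 1 was higher and 2 were lower, among them CTTN (cortactin, -0.13 ± 0.04) and WASL (0.11 ± 0.03). SRF and its cofactors MRTFA and MRTFB were not called across the lines, but 1 of the 3 was for an effect that differed between lines. In RKO, SRF fell by 0.23 ± 0.07 (adjusted p = 0.0214) and MRTFB rose by 0.47 ± 0.14 (adjusted p = 0.0120), and MRTFB rose over time in CFSE-labeled cells as well (0.60 ± 0.22, adjusted p = 0.0399). Of 22 capping, bundling and severing genes, 4 were lower and 0 higher, led by TMSB10, which binds actin monomers (-0.26 ± 0.07, adjusted p = 2.928e-03), and CAPZB (-0.12 ± 0.04), and of 15 other adhesion plaque genes 3 were higher and 0 lower, led by BCAR1 (0.17 ± 0.04) and TES (0.17 ± 0.04). In RKO, 13 of 76 were higher and 25 lower, including 12 of the 21 capping, bundling and severing genes and 4 of the 7 other Arp2/3 subunits lower, where 20.4% of all genes were higher and 21.0% lower. In DLD1 the counts were 4 higher and 5 lower of 79, where 14.6% of all genes were called. Over time they were 20 higher and 4 lower of 79 in unlabeled cells, where 12.4% of all genes were higher and 13.1% lower, and 25 higher and 8 lower in CFSE-labeled cells, where 20.2% were higher and 19.1% lower.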

How the data were processed

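RNA from 48 sorted and 16 unsorted samples was sequenced as single-end reads. The files deposited by the authors hold raw counts per Ensembl gene for each library, and their processing notes name TopHat, HTSeq, DESeq and hg19. Annotation release, tool versions and strand setting are not given in the sources used here. Rows that name no gene were left out of library sizes. Per sample, reads on no counted feature, which need not lie outside genes, came to 5.19% to 14.8% of counts on genes, these reads and ambiguous reads.

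CPM values were computed from the deposited counts on library totals scaled by TMM, separately for sorted and unsorted samples, and RPKM by canonical transcript length. Tests used edgeR 4.0.16 in R 4.3.3 (TMM scaling, quasi-likelihood F-test), after genes reaching 10 counts in fewer than 4 samples of a fit were dropped, with Benjamini-Hochberg adjustment over all genes tested and a threshold of 0.05. Log2 fold changes are from these fits of the deposited counts. The fit across lines held all 48 sorted samples with line and population as terms. Each line, and the 16 controls, were fitted on their own, so levels of sorted and unsorted cells were not tested against each other. Named genes were those called across lines, up to 8 called genes by size of change in each line or control comparison, up to 8 by p in the test between lines, and the 6 highest and 8 most variable in level.

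Deviations of same-numbered samples from their group means correlated above 0.1 in every pair in HT55 (0.14 to 0.40), SW48 (0.13 to 0.46), DLD1 (0.15 to 0.34), HCT15 (0.24 to 0.43) and between days of CFSE-labeled cells (0.16 to 0.29), but not in RKO, SW948 or the other control pairs. The numbers come from the sample labels. Alternatives were DESeq2 1.42.0, library size without TMM, no filter on low counts, a replicate block, 1 fit of all sorted samples, and leaving out lines or replicates. The scripts were tested on simulated data. Promoter windows are from RefSeq (GRCh38.p14), and gene positions in GRCh37 from GENCODE. The genes and lists were chosen with earlier results of these data known. The values of 1 of the other pathway lists are not reported here, though its genes are in the totals over all lists.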

Additional observations from a re-analysis of the deposited data

Results flagged for a closer look

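The LRC effect differed between lines, by edgeR's quasi-likelihood test of the interaction with Benjamini-Hochberg adjustment, for 14 genes. The adjusted p was 3.884e-11 for TAGLN2, 7.484e-04 for GSN, 4.185e-03 for PFN2, 4.713e-03 for TPM1, 8.816e-03 for MSN, 0.0196 for EZR, 0.0197 for CDC42 and 0.0243 for CFL2. It was 0.0315 for MYL12B, 0.0326 for RDX, 0.0392 for MYH10, 0.0448 for TPM2, 0.0468 for ACTB and 0.0493 for ARPC2. None of the 14 was called without RKO.

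Single samples stood apart from the other 3 of their group in 5 of 42 groups of values examined, where chance gives about 1 in 20. Groups of different genes share libraries, as for GSN and RHOB below, so the 42 are not independent and that rate is only a rough guide. In unlabeled DLD1 cells on day 1, replicate 4 held 180.1 CPM of GSN and 99.4 CPM of RHOB. CFSE-labeled replicate 1 on day 1 held 80.9 CPM of MYH14, RKO non-LRC replicate 1 held 3005 CPM of ACTG1, and DLD1 non-LRC replicate 3 held 0.509 CPM of MSN, which is 8 reads.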

How the results depend on the processing

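No named change reversed under any alternative: of 686 recomputed changes of named genes, 585 stayed past the threshold and 101 fell short of it with the same sign, 41 of these in the test across lines. The named genes were picked among called members of these same data, and the refits share most of their samples. A reversal was therefore unlikely from the outset, and the 686 are not separate checks. Each count of members below is followed by the share of all genes called in the same fit. With the replicate block, 23 members were called for an effect differing between lines (33.6%), 2 in SW948 (3.66%), 5 in SW48 (9.69%), 19 in DLD1 (33.8%), 5 in HCT15 (21.3%), 19 over time in CFSE-labeled cells (42.3%), 13 for the dye on day 1 (26.2%), 4 for the dye on day 5 (10.4%) and 1 for time by dye (1.47%). In SW948, RKO, unlabeled cells over time and the dye comparisons the samples share only a number. The test across lines called 6 members without RKO (14.6%) and 7 without DLD1 (17.3%), and the test of differing effects called 0 without RKO (1.02%). One fit of all 48 sorted samples called 2 members in SW948 (2.34%), 1 in SW48 (2.93%), 2 in DLD1 (3.89%) and 1 in HCT15 (4.20%). DESeq2 called 2 in SW948 (1.79%), 3 for the dye on day 5 (10.5%) and 2 for time by dye (4.24%). Without a filter on low counts there were 3 in SW948 (3.60%) and 2 for the dye on day 5 (3.41%). Without TMM there were 8 over time in unlabeled cells (21.4%) and 1 for the dye on day 5 (4.40%). The cause of these shifts was not tested. Leaving out 1 replicate at a time gave the ranges below, with the number of all genes called in brackets instead of a share. The ranges of members and of all genes were taken separately, so their ends need not come from the same fit. In CFSE-labeled cells over time, 11 members went with 5566 and with 4596 genes, 13 with 4216 and 16 with 5205. Each of these fits tested 12523 to 16572 genes. Across lines 6 to 14 members were called (2243 to 4050), and for differing effects 3 to 14 (522 to 2994). In SW948 it was 0 to 7 (0 to 1956), in RKO 23 to 26 (4306 to 5116) and in DLD1 4 to 8 (963 to 1784). Over time it was 4 to 18 (963 to 6077) in unlabeled and 11 to 16 (4216 to 5566) in CFSE-labeled cells. The dye gave 4 to 11 (1358 to 3715) on day 1 and 0 (0 to 812) on day 5. Time by dye gave 0 to 3 (0 to 1068) and levels 38 to 40 (14471 to 14671). Leaving out SW948 LRC replicate 4 across lines, or unlabeled day 1 replicate 4 for time by dye, was chosen after seeing the data. Low counts limit MSN outside RKO, RDX in RKO, MYH10 in HT55, SW48 and RKO, and CNN1 in all lines.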

Other observations

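TPM2 stood at 1.08 to 2.49 CPM in the 8 sorted DLD1 libraries and at 16.9 to 58.9 CPM in the 16 unsorted DLD1 libraries, which were normalized separately, and the difference was not tested. ACTA2 was at 15.1 CPM in SW48 non-LRCs and 30.2 CPM in SW48 LRCs (adjusted p = 0.0543 by edgeR).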
